A study of Homo sapiens with 6 samples.

Results

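A group of 10 named genes, known targets and inhibitors of NF-κB, was followed between a parental and a lenvatinib resistant liver cancer line. They were the CXC chemokines CXCL1, CXCL2, CXCL3, CXCL5 and CXCL8, the CC chemokine CCL20, the NF-κB inhibitors NFKBIA and TNFAIP3, the apoptosis inhibitor BIRC3 and the NF-κB subunit RELB. The genes were found by an exact match of their symbols in the deposited table, and all 10 of 10 were present among its 26184 genes and loci. The libraries were 3 of Huh7 P and 3 of Huh7 LR. Huh7 is an established human hepatocellular carcinoma cell line, and Huh7 P is its untreated parental form. Huh7 LR was derived from it under lenvatinib, an inhibitor of VEGF and FGF receptor kinases, raised from 1 to 20 μM during 10 months, and was then kept in medium with 20 μM of the drug. Both lines are labelled as wild type. Huh7 LR is a single derived line. The sources used here do not say whether the drug was on the plates taken for RNA, so the derived state and the presence of the drug cannot be told apart. The study describes the 3 samples of each line as independent, but not as separate derivations, so the p-values measure the spread between these samples.

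NF-κB is a family of dimeric transcription factors that are held in the cytoplasm by IκB proteins. Receptors for TNF, interleukin 1 or bacterial products activate the IκB kinase, the inhibitor is degraded and the dimers enter the nucleus. Among the genes they switch on are their own inhibitors, so that the response is brought to an end, and chemokines that attract leukocytes. In liver and in hepatocellular carcinoma, CXC chemokines made by the epithelial cells are known as attractants of neutrophils.

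The promoters show what the genes share in sequence. RefSeq promoters (GRCh38.p14) were matched for 9 of the 10 genes, RELB being the one not in the table used. The 250 bases before the start were searched on both strands for the κB consensus GGGRNNYYCC. In it R is A or G, Y is C or T and N is any base. It was found in 8 of these 9 promoters, and in 9.96% of the 35116 promoters of the table. These stretches of at most 30 bases carry the matches, in capitals. The first 4 are shown because they hold the same word of 11 bases and the rest because they show the other forms of it.
CXCL1: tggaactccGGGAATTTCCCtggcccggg
CXCL2: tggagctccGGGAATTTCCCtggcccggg
CXCL3: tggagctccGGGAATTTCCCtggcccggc
CXCL5: atgagttcaGGGAATTTCCCcagcatccc
NFKBIA: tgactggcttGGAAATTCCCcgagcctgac
TNFAIP3: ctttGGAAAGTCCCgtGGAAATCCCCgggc
CCL20: tgatcaatggGGAAAACCCCatgtggcaac
BIRC3: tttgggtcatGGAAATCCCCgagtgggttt
The stretches lie at chr4:73869305-73869333 (plus strand) for CXCL1, chr4:74099254-74099282 (minus) for CXCL2, chr4:74038749-74038777 (minus) for CXCL3 and chr4:73998749-73998777 (minus) for CXCL5. Those of the other genes lie at chr14:35404811-35404840 (minus) for NFKBIA, chr6:137867188-137867217 (plus) for TNFAIP3, chr2:227813753-227813782 (plus) for CCL20 and chr11:102317275-102317304 (plus) for BIRC3. BIRC3 had a further match, which is not printed. RefSeq starts and GENCODE genes do not coincide everywhere. The RefSeq start lay inside the GENCODE gene for 7 of the 9 promoters, by 8103 bases for CCL20 and by 34 to 118 bases for the other 6, so the stretches printed for CXCL2, CXCL3, CXCL5, CCL20 and TNFAIP3 lie wholly within the gene as GENCODE gives it.

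The word GGGAATTTCCC of the first 4 promoters was present, on either strand, in 27 of the 35116 promoters (0.0769%). It holds 2 overlapping matches to the consensus, 1 on each strand. The word of 10 bases GGGAATTTCC, whose reverse complement stands in the NFKBIA promoter, was present in 50 promoters (0.142%), and 5 of them belong to the genes studied here. In CXCL1, CXCL2 and CXCL3 the word began 78 or 79 bases before the start, and in CXCL5 it began 91 bases before it. Over the 250 bases, CXCL1 was 84% identical to CXCL3 and 75.6% identical to CXCL2, while CXCL5 was 54.8% to 56% identical to the other 3. The window of CXCL8 held no full match to the consensus, but it held TGGAATTTCC, which differs from GGGAATTTCC in the first base only. These are letters in a window and not measured binding sites.

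The 5 CXC chemokine genes also share a place. They lie within 359 kb of chromosome 4 (73740506 to 74099293, GRCh38), in a run of 9 protein-coding genes that also holds CXCL6, PF4V1, PF4 and PPBP. CCL20 lies on chromosome 2 (227805739 to 227817564), NFKBIA on chromosome 14 (35401511 to 35404749) and TNFAIP3 on chromosome 6 (137867188 to 137883312). BIRC3 lies on chromosome 11 (102317450 to 102339403) and RELB on chromosome 19 (45001430 to 45038198). No exon of the 10 genes overlaps that of another gene on the same strand in GENCODE release 29. On the other strand, 95 bases of TNFAIP3 exons are shared with AL357060.1, and whether counting used strand is not given in the sources used here. CXCL1, CXCL2 and CXCL3 are close paralogs, and 4.81%, 12.5% and 6.01% of their windows of 50 bases occur in one of the other genes. Of their windows of 100 bases, 0%, 5% and 3.27% do so. A read that falls wholly in such a window could not be assigned to 1 gene, and the read length is not given in the sources used here.

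Total counts were 62738937 to 71427573 per library, and 17531 genes and loci had enough counts to be tested, all 10 genes among them. Levels within a gene are read counts scaled to library size with edgeR's TMM method (CPM), and the lines were compared by the quasi-likelihood test of edgeR, with p-values adjusted after Benjamini and Hochberg over all 17531. Across genes, which are not independent replicates, pairs of Huh7 LR libraries had a Spearman's rho of 0.9907 to 0.9941 and pairs of Huh7 P libraries one of 0.9945 to 0.9951. All 8 hepatocyte markers were detected, with AFP at 23000 CPM in Huh7 P and 19600 in Huh7 LR and ALB at 13000 and 21600.

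At an adjusted p under 0.05, 5 of the 10 genes were higher in Huh7 LR and 0 were lower. They were CXCL1, CXCL2, NFKBIA, TNFAIP3 and RELB. Of all genes and loci tested, 23.3% were higher and 22.4% lower by the same rule. CXCL1 and TNFAIP3 also passed a stricter level, a change above 2-fold with an adjusted p under 0.001, which 4.43% of all tested passed upward. The study called genes at the same fold change with a p under 0.001, not stated to be adjusted. The median log2 fold change was 0.62 over the 10 genes and 0.00 over all tested. In these same 5 genes the lowest Huh7 LR value exceeded the highest Huh7 P value, a separation found in 28.2% of all genes and loci tested. In the other 5 genes the libraries of the lines overlapped. In bulk RNA, a change in the number of cells that make a transcript and a change in the amount per cell cannot be told apart.

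**Figure D1:**
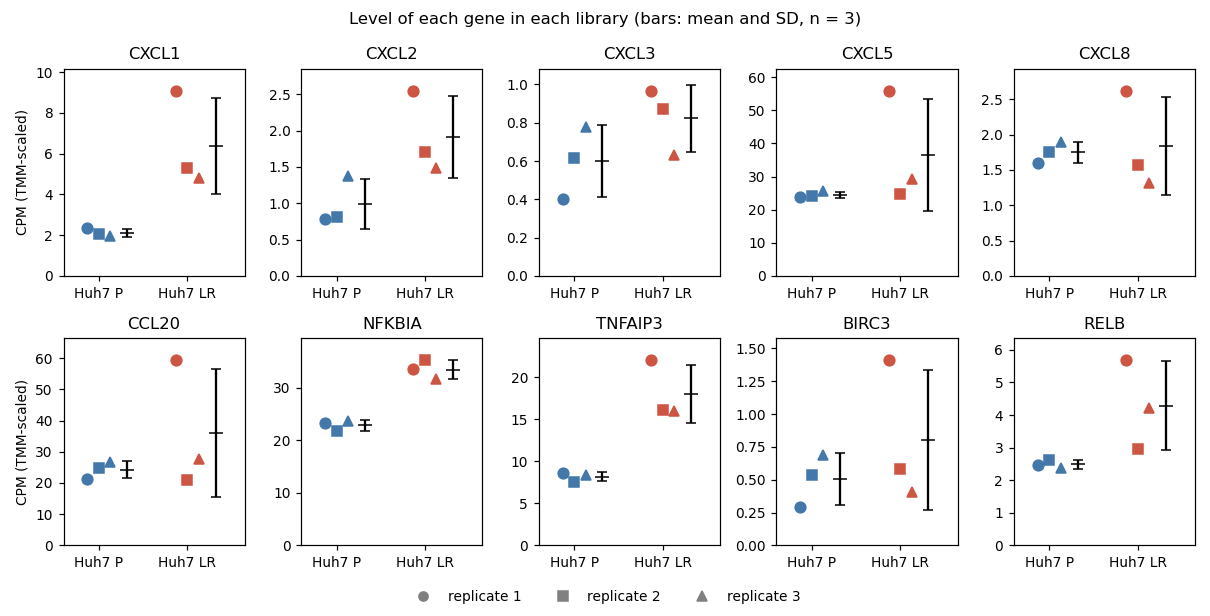
TMM-scaled CPM of each of the 10 genes in each library, with the line on the x axis, a symbol for each replicate number and the mean ± SD (n = 3) in black. CXCL1, CXCL2, NFKBIA, TNFAIP3 and RELB are higher in all 3 Huh7 LR libraries than in any Huh7 P library. Replicate 1 is the highest Huh7 LR library in 9 of the 10 genes, NFKBIA being the exception.

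NFKBIA and TNFAIP3, the inhibitors among the 10 genes, both rose. NFKBIA encodes IκBα, which holds NF-κB dimers in the cytoplasm. It had 23.2, 21.7 and 23.7 CPM in Huh7 P and 33.5, 35.2 and 31.6 CPM in Huh7 LR. The Huh7 LR libraries were close to each other and all above Huh7 P. The log2 fold change was 0.55 (standard error, SE, 0.08, edgeR adjusted p = 0.000231), a 1.46-fold rise.

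TNFAIP3 encodes A20, a ubiquitin-editing enzyme that shuts off signalling upstream of the IκB kinase. It had 8.60, 7.55 and 8.38 CPM in Huh7 P and 22.0, 16.1 and 16.0 CPM in Huh7 LR. Replicate 1 was the highest of the Huh7 LR libraries, and the other 2 also stood above all Huh7 P libraries. TNFAIP3 rose with a log2 fold change of 1.14 (SE 0.14, edgeR adjusted p = 6.29e-05). Without Huh7 LR replicate 1 it was 0.97 (adjusted p = 4.58e-05), which is no longer past 2-fold.

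BIRC3 encodes cIAP2, a ubiquitin ligase that keeps cells alive under TNF and restrains the non-canonical pathway. Its counts were 21, 33 and 45 against 92, 41 and 28, or 0.293, 0.535 and 0.688 CPM in Huh7 P and 1.41, 0.585 and 0.41 CPM in Huh7 LR. Only replicate 1 of Huh7 LR lay above the Huh7 P range, and the other 2 lay within it. The log2 fold change of 0.67 (SE 0.48, edgeR adjusted p = 0.28) did not pass. It was -0.02 without Huh7 LR replicate 1.

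RELB encodes the NF-κB subunit of the non-canonical pathway, the transcription of which is itself driven by NF-κB. It had 2.48, 2.61 and 2.36 CPM in Huh7 P and 5.68, 2.97 and 4.21 CPM in Huh7 LR. All Huh7 LR libraries were above Huh7 P, though replicate 2 only by a small margin. RELB rose with a log2 fold change of 0.79 (SE 0.22, edgeR adjusted p = 0.0117) and one of 0.53 (adjusted p = 0.0372) without Huh7 LR replicate 1.

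Of the CXC chemokines, all of which act on neutrophils through the receptor CXCR2, CXCL1 had the largest fold change. It had 2.34, 2.06 and 1.94 CPM in Huh7 P and 9.08, 5.28 and 4.79 CPM in Huh7 LR, from counts of 127 to 168 and 327 to 592. Every Huh7 LR library exceeded every Huh7 P library more than the Huh7 P libraries differed among themselves. CXCL1 rose 3.02-fold, with a log2 fold change of 1.59 (SE 0.23, edgeR adjusted p = 0.000244). Without Huh7 LR replicate 1 the rise was 2.38-fold. With any 1 of the Huh7 P libraries left out, the adjusted p was 0.00149 to 0.00265, above 0.001.

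CXCL2 had 0.78, 0.81 and 1.38 CPM in Huh7 P and 2.55, 1.70 and 1.48 CPM in Huh7 LR. The lines did not overlap, but Huh7 P replicate 3 came close to Huh7 LR replicate 3. CXCL2 rose with a log2 fold change of 0.95 (SE 0.29, edgeR adjusted p = 0.0199). It did not pass without Huh7 P replicate 1 (adjusted p = 0.0794), Huh7 P replicate 2 (0.0758) or Huh7 LR replicate 1 (0.0716). CXCL3 had 0.404, 0.616 and 0.78 CPM in Huh7 P and 0.967, 0.871 and 0.63 CPM in Huh7 LR, with an overlap of the lines. Its log2 fold change was 0.46 (SE 0.32, edgeR adjusted p = 0.275).

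Since these 3 paralogs share sequence, their counts were also added. The sum was 3.53, 3.48 and 4.10 CPM in Huh7 P and 12.6, 7.85 and 6.90 CPM in Huh7 LR. Tested as 1 gene in edgeR, the sum rose with a log2 fold change of 1.30 (SE 0.21, adjusted p = 0.000449), and one of 0.99 without Huh7 LR replicate 1. A two-sided exact permutation test of the summed CPM gave p = 0.1, the smallest that 3 samples against 3 allow. The sum is unaffected by how reads were split among the 3 genes.

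CXCL5 was the CXC chemokine with the most reads. It had 23.8, 24.0 and 25.6 CPM in Huh7 P and 55.9, 24.6 and 29.3 CPM in Huh7 LR. Replicate 1 of Huh7 LR was 2.07 times the mean of the other 2, and replicate 2 lay within the Huh7 P range. The log2 fold change of 0.58 (SE 0.24, edgeR adjusted p = 0.0656) did not pass, and it was 0.14 without Huh7 LR replicate 1. It passed in 5 of 13 alternatives, among them the fit without Huh7 LR replicate 2 (adjusted p = 0.01) and that without Huh7 LR replicate 3 (0.0498).

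CXCL8, which encodes interleukin 8, had 1.6, 1.75 and 1.90 CPM in Huh7 P and 2.62, 1.57 and 1.32 CPM in Huh7 LR. Replicate 1 of Huh7 LR lay above the Huh7 P libraries and replicates 2 and 3 below them. The log2 fold change was 0.07 (SE 0.25, edgeR adjusted p = 0.848), and it was -0.28 (adjusted p = 0.312) without Huh7 LR replicate 1.

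CCL20, the ligand of CCR6 that attracts Th17 cells and dendritic cells, showed the same order of libraries within each line as CXCL5. It had 21.3, 24.8 and 26.6 CPM in Huh7 P and 59.3, 21.0 and 27.7 CPM in Huh7 LR. Replicate 1 of Huh7 LR was 2.44 times the mean of the other 2, one of which lay below and one above the Huh7 P range. The log2 fold change was 0.57 (SE 0.29, edgeR adjusted p = 0.136) with all libraries and 0.01 (adjusted p = 0.972) without Huh7 LR replicate 1. Without Huh7 LR replicate 2 it was 0.85 and passed (adjusted p = 0.018).

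**Figure D2:**
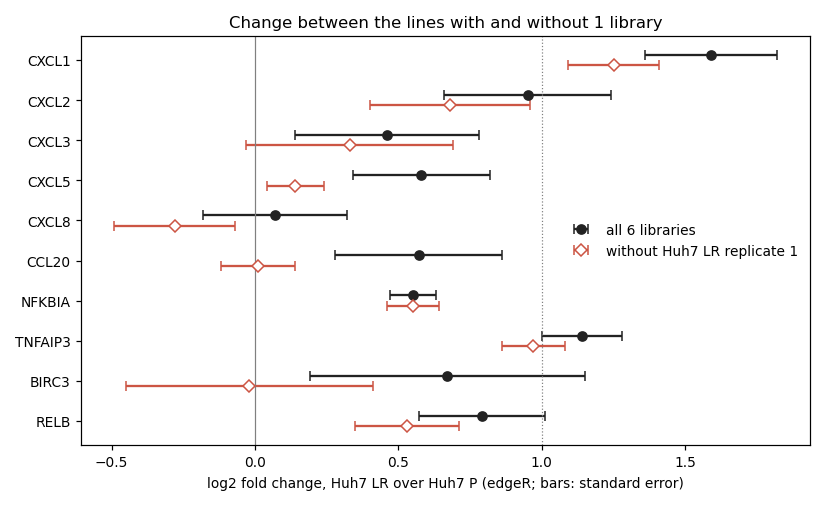
Log2 fold change of Huh7 LR over Huh7 P from edgeR for each gene, with its standard error, for all 6 libraries (filled) and without Huh7 LR replicate 1 (open). The dotted line marks a 2-fold rise. NFKBIA is at 0.55 in both, while CCL20 moves from 0.57 to 0.01 and BIRC3 from 0.67 to -0.02.

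Huh7 LR replicate 1 thus stood apart in these genes. It was the highest of the 3 Huh7 LR libraries in 9 of the 10 genes, NFKBIA being the exception, and in 36.2% of all genes and loci tested. In 7 of the 10 genes it was at least 1.5 times the mean of replicates 2 and 3, and in 6.5% of all tested, a limit chosen after the values were seen. Among all tested with a mean level inside the range of the 10 genes (0.654 to 30.5 CPM), it was 5.23%. Neither Huh7 LR replicate 2 nor replicate 3 was at least 1.5 times the mean of its 2 companions in any of the 10 genes. In Huh7 P, replicate 3 was so in 3 of them, beside 4.05% of all tested. It was also the highest of the 3 Huh7 P libraries in 7 of the 10 genes, beside 35.5% of all tested. Huh7 LR replicate 1 had 63233655 counts, fewer than the other Huh7 LR libraries and more than Huh7 P replicate 2. Of its counts 3.35% fell on loci without an annotated gene, the highest share of the 6 libraries, the others having 2.86% to 3.04%. The part of depth and of this share in the result was not tested. With it left out, 4 of the 10 genes passed at an adjusted p under 0.05, against 22.1% of all tested that were higher, and these were CXCL1, NFKBIA, TNFAIP3 and RELB. CXCL1 alone of them was past 2-fold at an adjusted p under 0.001, as were 4.06% of all tested upward.

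**Figure D3:**
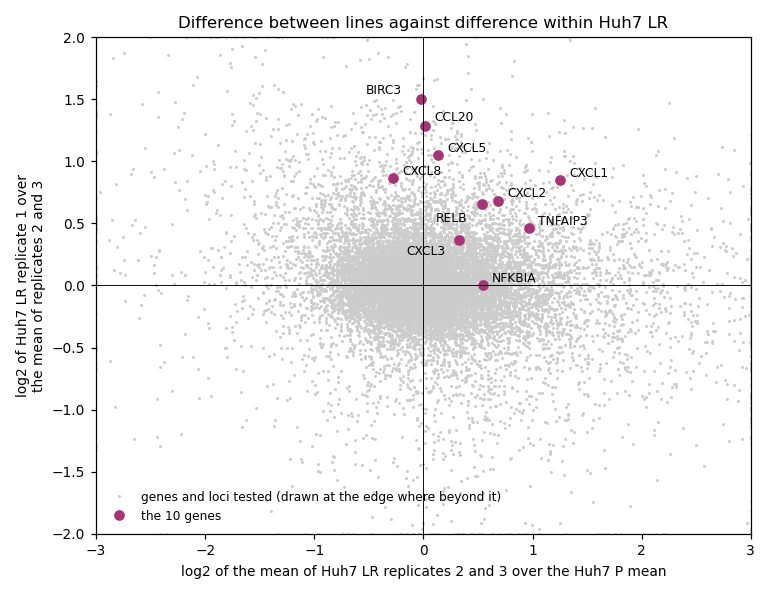
Each of the 10 genes (purple) by the log2 ratio of Huh7 LR replicates 2 and 3 to Huh7 P on the x axis and by the log2 ratio of Huh7 LR replicate 1 to replicates 2 and 3 on the y axis, with all genes and loci tested in grey. BIRC3, CCL20 and CXCL5 lie high and near the vertical line, NFKBIA lies on the horizontal line, and CXCL1, at 2.38 and 1.80 times, lies off both.

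The genes whose levels over the 6 libraries were most like the sum of the 5 CXC chemokines were taken from the 14043 other annotated genes tested. The sum itself was 29, 29.2 and 31.6 CPM in Huh7 P and 71.1, 34.0 and 37.5 CPM in Huh7 LR. CXCL5 made up 72.3% to 82.3% of it, so the likeness is mostly that to CXCL5. The most alike was INSIG1, which encodes a protein that retains SREBP in the endoplasmic reticulum, with a Pearson's r of 0.9985 on log2 CPM. INSIG1 had 95.0, 92.2 and 99.8 CPM in Huh7 P and 187, 106 and 116 CPM in Huh7 LR. LETMD1 (r = 0.9921), CDNF (0.9907), KIAA1324 (0.989) and HMGCS1 (0.9874), an enzyme of cholesterol synthesis, followed. All 5 had their highest value in Huh7 LR replicate 1. These values describe 6 shared libraries and carry no test.

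Between genes, levels were compared per transcript length as the authors' FPKM. In Huh7 P the order was CCL20 with 27.5 ± 2.83 FPKM (SD, n = 3), NFKBIA with 13.5 ± 0.628, CXCL5 with 8.85 ± 0.286, CXCL1 with 1.77 ± 0.19 and TNFAIP3 with 1.63 ± 0.109. CXCL8, RELB, CXCL2 and CXCL3 had means of 1.01 to 0.504 FPKM, each with a range that overlapped the next, and BIRC3 was lowest with 0.0923 FPKM. CXCL1 and TNFAIP3 also overlapped each other. In Huh7 LR the first 5 kept their order, with CCL20 at 41.8 ± 24 FPKM, NFKBIA at 20.1 ± 1.05, CXCL5 at 13.5 ± 6.36, CXCL1 at 5.45 ± 2.05 and TNFAIP3 at 3.83 ± 0.88, and the ranges of NFKBIA and CXCL5 now overlapped. RELB and CXCL2 came before CXCL8 there, with overlapping ranges of CXCL2 and CXCL8, and CXCL3 and BIRC3 were again the lowest.

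The rest of the pathway was described from 8 lists that hold 100 genes, 76 of them with enough counts. At an adjusted p under 0.05, 35 of these were higher and 10 lower in Huh7 LR, beside 23.3% and 22.4% of all tested, with a median log2 fold change of 0.21. TLR3, IL33 and CXCL10 passed the filter on low counts through Huh7 LR alone and LCN2 through Huh7 P alone, and without these 4 genes 33 of 72 were higher and 9 lower. Without Huh7 LR replicate 1, 4 of the 76 no longer passed at an adjusted p under 0.05 (NFKB1, with a log2 fold change of -0.19 and an edgeR adjusted p of 0.0701, TRAF2, TRADD and LCN2), and TRAF1 and IL1B no longer passed the stricter level. RIPK1 newly passed there (log2 fold change 0.34, edgeR adjusted p = 0.00567). LIF newly passed the stricter level downward (-1.35, edgeR adjusted p = 0.000162). The 10 genes above are not among the 76. Past 2-fold at an adjusted p under 0.001, 9 were higher and 2 lower, against 4.43% and 1.78% of all tested.

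Among the receptors that activate NF-κB, 8 of 9 tested were higher and 0 lower, beside 23.3% and 22.4% of all tested. Without TLR3, 7 of 8 were higher. IL1R1, the signalling receptor of interleukin 1, had 5.23, 5.06 and 5.74 CPM in Huh7 P and 13.1, 9.55 and 12.6 CPM in Huh7 LR, and its log2 fold change was 1.14 (edgeR adjusted p = 7.3e-05). Its partner IL1RAP, with the most reads of the list in CPM, which is not scaled for length, rose by 0.91 on the log2 scale. TLR5 rose with a log2 fold change of 1.87, though from no more than 0.293 CPM in any Huh7 P library. TLR3, with 6 to 11 counts in Huh7 P and 18 to 39 in Huh7 LR, was tested only because of Huh7 LR. The receptor of TNF, TNFRSF1A, had a log2 fold change of 0.05 and did not pass. CD40 and TLR4 had 0 counts in all 6 libraries, which allows up to 0.042 to 0.0478 CPM, counting error only.

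Of the activating ligands, 4 of 11 had enough counts to test. Of these 2 were higher, IL1B and IL33, or 1 of 3 without IL33, beside 23.3% of all tested. IL1B, which encodes interleukin 1β, had 0.418, 0.502 and 0.52 CPM in Huh7 P and 1.76, 1.14 and 1.42 CPM in Huh7 LR, with a log2 fold change of 1.58 (edgeR adjusted p = 0.000602). IL33 had 0 to 13 counts in Huh7 P and 41 to 49 in Huh7 LR, and it was tested only because of Huh7 LR. The log2 fold change of IL18, with the most reads of the list, was 0.21 (adjusted p = 0.0814). TNF had at most 3 counts in any library.

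In the core of the pathway, the counts are read beside 23.3% higher and 22.4% lower of all tested. Of the other Rel subunits, NFKB2, the partner of RELB, rose by 0.61 and RELA by 0.20 on the log2 scale, NFKB1 fell by 0.24, and REL, with -0.23, did not pass. NFKB2 had 13.8, 11.4 and 13.7 CPM in Huh7 P and 24.6, 17.9 and 16.8 CPM in Huh7 LR, again with replicate 1 the highest. Of the other IκB proteins, 2 of 5 rose, and both of these act mainly in the nucleus. They were NFKBIZ, with 123, 128 and 132 CPM in Huh7 P and 224, 231 and 227 CPM in Huh7 LR, and BCL3. NFKBIB (log2 fold change 0.02), NFKBIE (0.37) and NFKBID (-0.3) did not pass. A list of 10 genes held IκB kinases, kinases above them and the partner subunits IKBKG, TAB1, TAB2 and TAB3. Of these 10, 1 rose (MAP3K14, the kinase of the non-canonical pathway) and 3 fell. The 3 were CHUK, by 0.54, TBK1, by 0.51, and MAP3K7, by 0.36 on the log2 scale. Of the 13 genes listed as adaptors, among them the kinases IRAK1, IRAK2, IRAK4 and RIPK1, 2 rose and 3 fell, near or below the same shares. TRAF1 rose with a log2 fold change of 1.09, TRAF5 had one of -1.30 and IRAK1, with the most reads, one of -0.50. Of the 8 ubiquitin brakes tested, 4 rose and 0 fell, and TAX1BP1, with the most reads, had a log2 fold change of 0.47.

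**Figure D4:**
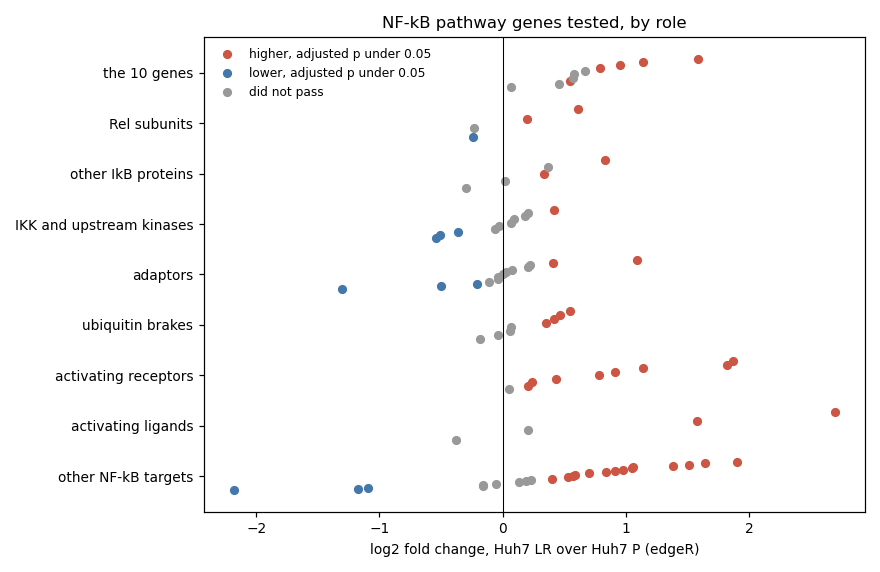
Log2 fold change of Huh7 LR over Huh7 P from edgeR for the 10 genes and for the 76 other pathway genes tested, each point a gene, by role, in red where higher and in blue where lower at an adjusted p under 0.05. Of the receptors 8 of 9 are red (7 of 8 without TLR3, tested only because of Huh7 LR). In the kinase row, which also holds partner subunits, 1 of 10 genes is red and 3 are blue. Of all tested, 23.3% were higher and 22.4% lower.

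Of the other NF-κB targets, 14 of 23 tested were higher and 3 lower, beside 23.3% and 22.4% of all tested. Without CXCL10 and LCN2, each tested because of 1 line only, 14 of 21 were higher and 2 lower. CX3CL1, a membrane-bound chemokine, had 6.51, 6.43 and 6.71 CPM in Huh7 P and 18.6, 19.2 and 18.3 CPM in Huh7 LR, with a log2 fold change of 1.51 (edgeR adjusted p = 8.24e-07). CXCL16, also membrane-bound, had 10.3, 11.7 and 10.4 CPM in Huh7 P and 20.5, 25.7 and 21.1 CPM in Huh7 LR, with a log2 fold change of 1.05. Replicate 1 was not the highest Huh7 LR library in either of these chemokine genes. IL32 rose by 1.90, PLAU by 1.64, IRF1 by 1.38 and GADD45B by 1.06 on the log2 scale, and C3, with the most reads, by 0.91.

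The log2 fold change of IER3 was -1.17 (edgeR adjusted p = 3.54e-05), and LIF and LCN2 were the other lower targets, with -1.09 and -2.18, LCN2 having been tested only because of Huh7 P. CXCL6, the neighbour of CXCL8 on chromosome 4, had a log2 fold change of -0.16 and did not pass. CCL2, PTGS2, CSF2 and MMP9 had 0 counts in all 6 libraries. Huh7 LR replicate 1 was the highest of its line in 10 of the 23 targets and in 31 of the 76 pathway genes, beside 36.2% of all tested. It reached 1.5 times the mean of the other 2 in 2 of the 76, beside 6.5% of all tested. These were TRAF5 and LIF, both of which were lower in Huh7 LR.

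Of the receptors of the 6 chemokines, CCR6 alone had enough counts to test. It fell from 54.4, 53.7 and 53.6 CPM in Huh7 P to 38.1, 34.1 and 34.2 CPM in Huh7 LR, with a log2 fold change of -0.60 (SE 0.07, edgeR adjusted p = 6.31e-05). CXCR2 had 0 counts in all libraries and CXCR1 at most 3.

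Leukocytes also make several of these chemokines, and 8 of their markers were examined. HLA-DRA, TYROBP and S100A8 had 0 counts in all 6 libraries, and PTPRC had 0 to 15 counts. The sum of 8 leukocyte markers was 130 to 140 CPM in Huh7 P and 55.9 to 63 CPM in Huh7 LR, nearly all of it CD68 and LYZ, both of which were lower in Huh7 LR. CD14 had 1.77 to 2.06 CPM in Huh7 P and 1.91 to 3.45 CPM in Huh7 LR, with a log2 fold change of 0.53 that did not pass (edgeR adjusted p = 0.0708). The sum of 7 stromal and endothelial markers was 41 to 49.7 CPM in Huh7 P and 70.5 to 78.8 CPM in Huh7 LR, mostly PECAM1. Of the 4 tested, 4 were higher, beside 23.3% of all tested, but VWF was tested only because of Huh7 LR, and without it 3 of 3 were higher. DCN and CDH5 were at 0 in all libraries, and COL1A1 had 1.05 to 1.48 CPM in Huh7 P and 3.63 to 6.20 CPM in Huh7 LR, highest in replicate 1. The part of these markers in the differences above was not tested.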

How the data were processed

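RNA from 3 Huh7 P and 3 Huh7 LR samples was sequenced. The authors deposited 1 table with, for each gene and library, a whole-number read count, not normalized, and an FPKM value scaled by the authors for length and library size. The submitters' processing notes name TopHat2, Cufflinks, DESeq and mm10, without roles. The gene identifiers are those of human genes, and an extraction label names honeybee larvae. The annotation and the use of strand are not given in the sources used here. The 34 lines that name no gene or locus were left out.

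Counts were filtered by filterByExpr (minimum count 10, minimum total 15) and tested with edgeR 4.0.16 in R 4.3.3 (TMM factors 0.977 to 1.03, quasi-likelihood test, line as the only term). The SE of a gene is its log2 fold change divided by the root of its F. The biological coefficient of variation was 12.7%. Samples were grouped by their titles. The 10 genes and the lists were chosen with earlier results of these data known. Named genes are the 10, the pathway genes past 2-fold at an adjusted p under 0.001, the gene with the highest mean CPM (not scaled for length) of each list, and the 5 genes most alike, and others were chosen after their values were seen. Alternatives were DESeq2 1.42.0 (size factors, Wald test), other filters, a replicate block, limma-trend (limma 3.58.1) on log2 FPKM values with a pseudocount of 0.1 or 1 where 3 libraries reached 0.5 FPKM, the 3 paralogs summed, and each library left out. On simulated data with 200 changed genes of 17483 tested, edgeR recovered 199, with 12 unchanged genes called at an adjusted p under 0.05. Coordinates are those of GENCODE release 29 (GRCh38), promoters were aligned with Biopython 1.88, and figures drawn with matplotlib 3.10.9.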

Additional observations from a re-analysis of the deposited data

How the results depend on the processing

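At a mean below 2 CPM, CXCL2, CXCL3, CXCL8 and BIRC3 rest on 21 to 171 counts per library, which limits their precision. The number of the 10 genes higher at an adjusted p under 0.05 was 5, ranging from 4 to 7 when single libraries were left out, and 2 past 2-fold at an adjusted p under 0.001. With CXCL1, CXCL2 and CXCL3 summed to 1 entry, 4 of the 8 entries left were higher, CXCL1 and CXCL2 having been merged. In the fit with the genes kept apart, 23.3% of all tested were higher. The 2 past 2-fold became 1 under limma-trend on log2(FPKM + 1), where all tested gave 268 calls higher and 84 lower. With each library left out they were 1 to 2, beside 551 to 734 called higher of all tested. Without Huh7 LR replicate 1, CXCL8 (-0.28) and BIRC3 (-0.02) changed direction, and over the libraries left out they ranged from -0.28 to 0.26 and from -0.02 to 0.98, neither passing in any setting. Of 128 values of single genes under the alternatives, 117 kept direction and side of the threshold, 3 no longer passed (CXCL2), 6 newly passed (5 of CXCL5, 1 of CCL20) and 2 changed direction. BIRC3 was below the FPKM filter and had no limma-trend value. Samples with the same replicate number did not deviate together (correlation 0.03 in each of the 3 pairs, across genes), so the numbers were not taken as pairs. With the replicate block, 6 of the 10 genes were higher, CXCL5 being added (log2 fold change 0.49, adjusted p = 0.0412), and 4089 of all tested were higher by the same rule (4093 without the block). Past 2-fold at an adjusted p under 0.001, 783 of all tested were higher with the block. The cause of these changes was not tested.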
